A study of Saccharomyces cerevisiae with 4 samples.

Results

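The comparison set both strains with a scaffold RNA (ScRNA), byMM1827 and byMM1832, against both strains without one, byMM1777 and byMM1736, in RNA-seq of S. cerevisiae. All 4 libraries of the series entered it, 2 a side and 1 per strain. Of the 6418 genes in the count table, the 6010 that averaged 10 counts or more per library were compared. A gene was taken as separated where both ScRNA libraries lay on the same side of both control libraries, and 1329 of the 6010 genes did so on both scales used here.

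In byMM1827, denAsCas12a and ScRNA-5′ targeted the promoter of HED1 and the operator in front of the reporter gene yEGFP. In byMM1832, dCas12e and ScRNA-L1 targeted the promoter of GAL7 and the yEGFP reporter. The control byMM1777 carries denAsCas12a and the coat-protein activator MCP-VP64 but no ScRNA, and byMM1736 carries dCas12e and MCP-VP64 but no ScRNA. All 4 were built on CEN.PK2-1C, a MATa laboratory strain that carries SUC2 and MAL2-8c besides the mutant alleles ura3-52, trp1-289, leu2-3_112 and his3D1. LEU2 was restored with the reporter plasmid, URA3 with the Cas plasmid and TRP1 with the MCP-VP64 plasmid in every strain. The ScRNA plasmid brought HIS3, so that the ScRNA and the repaired histidine marker cannot be told apart in any value given here. Each strain stands for itself, since it is sequenced once, and the 2 strains of a side also differ in Cas protein, reporter plasmid and target promoter. Overnight cultures were diluted and grown again for some hours before RNA was taken, and the medium of these cultures is not given in the sources used here.

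Cas12 proteins are guided to DNA by a short RNA and bind next to a PAM, a few bases that the protein itself reads. When the nuclease is dead, the protein stays bound without cutting. The ScRNA adds an RNA hairpin to the guide, the hairpin is held by the coat protein MCP, and VP64, an acidic activation domain, then draws the transcription machinery to the promoter. Yeast genes of one pathway often share a regulator, so that sets of them are read together below by the pathway they serve.

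Total counts were 54013763 in byMM1827 and 47207057 in byMM1832, against 37275559 in byMM1777 and 50666124 in byMM1736. The library of byMM1777 stood apart, with a TMM factor of 1.09 against factors from 0.960 to 0.985 in the other 3, and its 10 most abundant genes took 10.9% of the counts against 13.4% to 13.8%. Values per library are given as CPM, the read count over the TMM-scaled library total, and the deposited TPM served as the second scale. Markers of MATa cells summed to 888 to 952 CPM in the ScRNA libraries and to 779 to 867 CPM in the controls. Those of MATalpha cells summed to 104 CPM in both ScRNA libraries and to 95.0 to 96.2 CPM in the controls, with STE3 and SAG1 above 0 in all 4 libraries. The 5 markers of haploid cells of either type went the other way, with 395 to 491 CPM in the ScRNA libraries and 524 to 525 CPM in the controls. None of the 8 meiotic and sporulation markers was at 0 either.

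No gene passed the test across both pairs. With the Cas protein as a block, edgeR's quasi-likelihood test called 0 of 6010 genes at an adjusted p under 0.05 (0.0%), and the lowest adjusted p was 0.136, that of HIS3. At an unadjusted p under 0.05 there were 501 genes, or 8.34%, with 223 (3.71%) on the higher side in the ScRNA strains and 278 (4.63%) on the lower side. DESeq2, on the same design, called 12 genes higher (0.2%) and 34 lower (0.566%), together 0.765% of the genes, and 33 of these 46 were separated on both scales. They include HIS3, COS12, NCW2 and IMD2 among the higher genes and 5 genes of lysine synthesis among the lower. On the deposited TPM, limma called 42 higher and 116 lower with a pseudocount of 1 and 39 higher and 119 lower with 0.1. One residual degree of freedom is left per gene, so the spread comes largely from what edgeR shares across genes. Without byMM1827, the test called 142 genes higher and 246 lower, whereas without any other single library it called at most 2 in a direction.

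The separated genes split into 543 that were higher in the ScRNA strains, or 9.03% of all genes, and 786 that were lower, or 13.1%, together 22.1%. On CPM alone 33.1% of the genes were separated in either direction, and on the deposited TPM alone 28.5%. With 2 libraries a side, an exact two-sided permutation test of a single gene cannot go below p = 0.33, so separation is a description and not a call. That 0.33 is also the share of the possible orders of the libraries that separate a gene. It is close to the 33.1% on CPM and above the 28.5% on TPM and the 22.1% on both scales. The number of separated genes is therefore not a result in itself. Most gaps were small. The gap, the log2 distance between the nearest ScRNA and control libraries, had a median of 0.13 in the higher genes and 0.12 in the lower genes, and it reached 0.5 in 13 higher genes (0.216%) and 18 lower genes (0.3%). A gap of at least 1 was found in HIS3 and YGL262W among the higher genes (0.0333%) and in ZRT1 and LYS9 among the lower genes (0.0333%). The balance between both directions depended on the scaling. ACT1 itself overlapped on CPM, with 3950 and 4267 CPM in byMM1827 and byMM1832, against 3046 and 4081 CPM in byMM1777 and byMM1736. On the deposited TPM it lay higher in both ScRNA libraries, with 3374 and 3575 TPM, against 2902 and 3339 TPM. If this gene of actin was set equal in all libraries, 179 genes were separated as higher and 1048 as lower, so that the higher share was 14.6% of the separated genes against 40.9%. The same scaling moved the median log2 fold change of all genes to −0.23, against −0.01 with TMM.

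**Figure D1:**
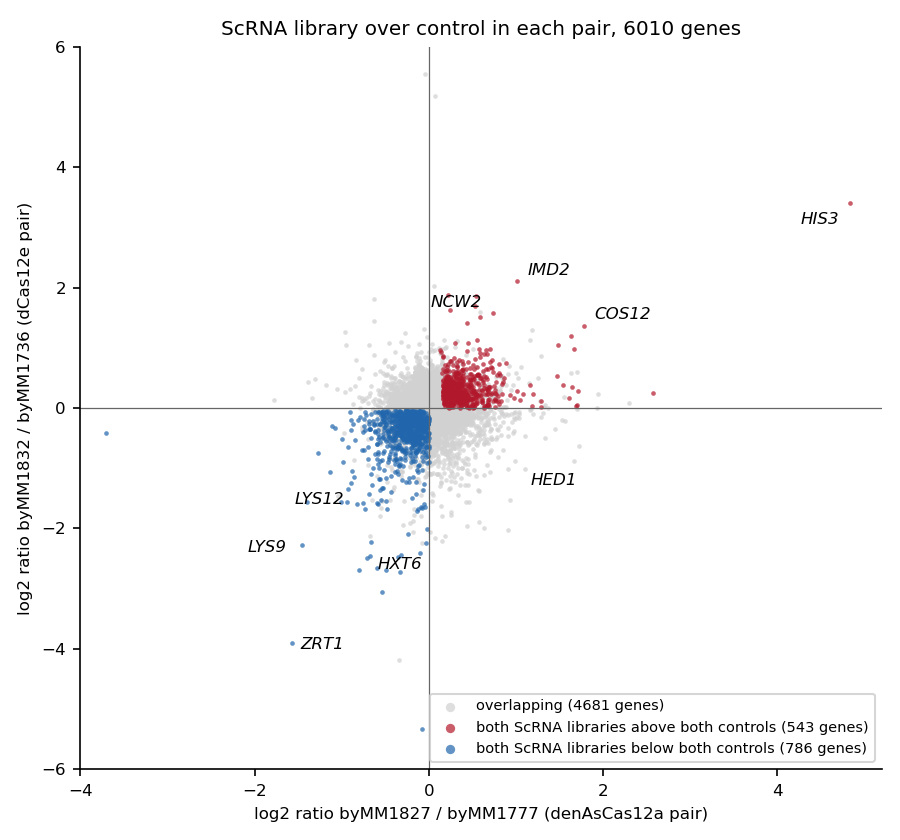
Log2 ratio of the ScRNA library to its control for each gene, with the denAsCas12a pair on the x axis and the dCas12e pair on the y axis, coloured by whether both ScRNA libraries lay above (red) or below (blue) both controls or overlapped them (grey). HIS3 stands alone at the top right and ZRT1 and LYS9 at the bottom left, HED1 has opposite signs in the pairs, and 2 genes lie outside the axes.

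Between the pairs, 33 genes were at least 1.5-fold higher in both, 42 were at least 1.5-fold lower in both, and 26 passed 1.5-fold in opposite directions. Without a limit on the fold, 1728 genes were higher in both pairs, 1767 were lower in both and 2515 went opposite ways. The plot of both ratios shows that most of the genes lie close to 0 in both pairs, and that the lower genes reach farther in the dCas12e pair.

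HIS3, which encodes an enzyme of histidine synthesis and is the marker of the ScRNA plasmid, gave the largest gap of all. It had 3654 CPM in byMM1827 and 1944 CPM in byMM1832, against 128 CPM in byMM1777 and 184 CPM in byMM1736. Every ScRNA library was thus more than 10 times above every control library, and the fitted log2 fold change was 4.12 ± 0.40 (SE, adjusted p = 0.136). The genes on either side of it on chromosome XV of the R64 reference were also separated. MRM1, a mitochondrial rRNA methyltransferase which lies 238 bp from HIS3 on the opposite strand, had 129 and 122 CPM in byMM1827 and byMM1832, against 78.2 and 77.2 CPM in byMM1777 and byMM1736. The groups did not overlap, with a log2 fold change of 0.69 ± 0.15 (adjusted p = 0.486). DED1, an RNA helicase of translation initiation that starts 303 bp beyond HIS3 on the same strand, had 235 and 281 CPM in the ScRNA strains, against 137 and 191 CPM in the controls. The integrative plasmids were cut inside the marker gene before transformation, and the part of this in the values of MRM1 and DED1 was not tested.

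The markers that all strains carry behaved otherwise. LEU2 had 853 and 1270 CPM in byMM1827 and byMM1832, against 679 and 980 CPM in the controls, and URA3 had 998 and 550 CPM, against 1118 and 616 CPM. Both overlapped between the groups, and for URA3 the libraries with the same Cas protein lay nearer to each other than those of a side. TRP1 had 219 and 234 CPM in the ScRNA strains, against 256 and 292 CPM, a log2 fold change of −0.27 ± 0.16 (adjusted p = 0.644) without overlap. Of the 9 other genes of histidine synthesis and uptake, 8 overlapped between the groups, and 1 (11.1%) was separated, against 22.1% of all genes. It was BAS1, a transcription factor of the histidine and purine genes, with 19.99 and 18.1 CPM, against 24.4 and 25.6 CPM in the controls. The median log2 fold change of these 9 genes was 0.02.

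**Figure D2:**
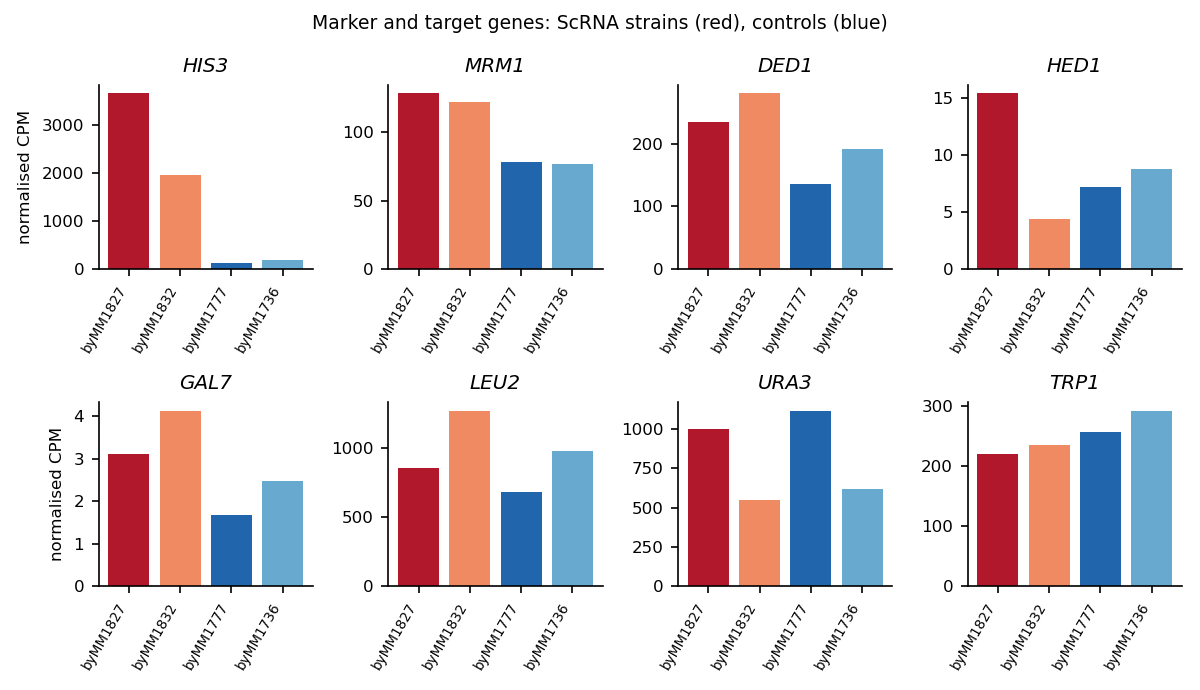
TMM-normalised CPM of the marker genes, the neighbours of HIS3 and the targeted genes in each library, with the ScRNA strains in red at the left of each panel and the controls in blue. HIS3, MRM1, DED1 and GAL7 are higher in both red bars than in both blue bars, HED1 is high only in byMM1827, and LEU2 and URA3 overlap.

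The endogenous targets of the ScRNAs did not share a pattern. The target sites are shown because they are what distinguishes the strains, with the PAM in capitals and read 5′ to 3′ on the + strand of R64, a genome of S288C and not of CEN.PK2-1C.
pHED1, denAsCas12a, chrIV:477661-477684: TTTCacggctttaattagcgtacg
pGAL7, dCas12e, chrII:275694-275717: TTCGgatcacggtcaacagttgtc
The targeted bases lie 112 bp before the coding sequence of HED1 and 170 bp before that of GAL7, which runs on the other strand, and both sites are between genes. HED1, a gene of meiotic recombination, had 15.4 CPM in byMM1827, where it was targeted, and 4.37 CPM in byMM1832, against 7.19 CPM in byMM1777 and 8.80 CPM in byMM1736. The ScRNA libraries lay on both sides of the controls, and the log2 fold change over both pairs was 0.06 ± 0.46 (adjusted p = 0.968). GAL7, an enzyme of galactose breakdown, had 3.10 CPM in byMM1827 and 4.13 CPM in byMM1832, where it was targeted, against 1.67 and 2.47 CPM in the controls. It was separated, at 0.81 ± 0.22 (adjusted p = 0.486), with a ratio of 1.85 for denAsCas12a, whose ScRNA was not aimed at it, and of 1.67 for dCas12e. Its mean count was 136, so that it was among the less abundant genes.

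The genes next to the targets overlapped, with 1 exception. DAD1, a kinetochore protein beside HED1, had 21.3 and 18.3 CPM in the ScRNA strains, against 13.4 and 26.2 CPM. On its other side RAD61, a regulator of cohesin, was separated with 7.95 and 8.76 CPM, against 13.2 and 9.15 CPM. KAP104, a nuclear import receptor next to GAL7, had 112 and 142 CPM, against 112 and 116 CPM, and GAL10, an enzyme of the same pathway on its other side, had 17.3 and 17.6 CPM, against 17.5 and 18.0 CPM. The 9 measured genes of the galactose list had a median log2 fold change of 0.08, which was −0.14 with ACT1 set equal, and GAL7 was separated as higher and PGM2 as lower.

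**Figure D3:**
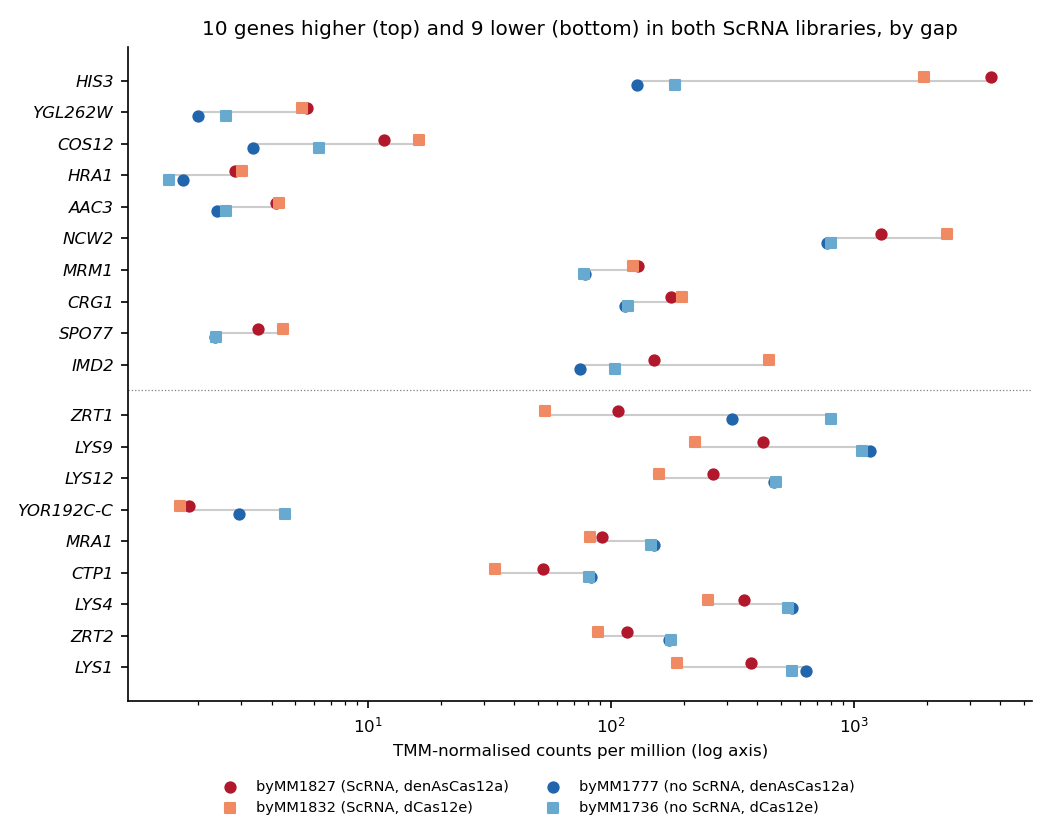
TMM-normalised CPM (log axis) of the 10 genes with the largest gap above the controls (top) and 9 of the 10 with the largest gap below them (bottom), among genes of at least 50 mean counts, with 1 point per library. Red and orange points are the ScRNA strains and blue points the controls, and in each row the red and orange points lie on one side.

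Besides HIS3 and MRM1, the higher genes with the largest gaps were of several kinds. COS12, of a subtelomeric family of membrane proteins, had 11.6 and 16.1 CPM in byMM1827 and byMM1832, against 3.37 and 6.25 CPM in byMM1777 and byMM1736, a log2 fold change of 1.57 ± 0.19 (adjusted p = 0.179). YGL262W, an uncharacterised gene beside it, had 5.58 and 5.35 CPM, against 1.99 and 2.59 CPM. Both were also separated by more than 2-fold in each pair, with ratios of 3.44 and 2.58 for COS12 and of 2.79 and 2.06 for YGL262W. These are subtelomeric genes at low level, with mean counts of 450 and 187.

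NCW2, a protein of the cell wall that answers to wall damage, had 1290 and 2415 CPM in byMM1827 and byMM1832, against 776 and 806 CPM in the controls. Its log2 fold change was 1.16 ± 0.27 (adjusted p = 0.486). IMD2, the inducible enzyme of guanine nucleotide synthesis, had 150 and 445 CPM, against 74.3 and 103 CPM, but only 50.2% of its 31-base words occur once in R64, since the family has near-identical members. The higher value lay in byMM1832 for both, and the lowest ScRNA value was still above the highest control value. CRG1, a methyltransferase of the cantharidin response in yeast, had 176 and 196 CPM, against 114 and 118 CPM, with the groups tight and apart. The other genes of this kind were under 5 CPM in all libraries: AAC3, an ADP/ATP carrier of anaerobic growth, SPO77, a sporulation gene, and HRA1, a noncoding RNA that overlaps another gene. Their log2 fold changes were 0.77 ± 0.21, 0.76 ± 0.23 and 0.85 ± 0.24.

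COS12 and YGL262W lie within 20 kb of the left end of chromosome VII, where 4 of the 8 measured genes were separated as higher and 0 as lower. This end was chosen because it holds COS12 and YGL262W, which are counted among the 4, and no other single end was counted. The other separated genes there were YPS5, with 51.1% unique 31-base words, and YGL258W-A, named here after their values were seen. Over all chromosome ends, 40 of the 226 genes within 20 kb were separated as higher and 19 as lower, which is 17.7% and 8.4%. Among the 5758 genes farther inside, 8.7% were higher and 13.2% were lower. The median log2 ratio of the genes near the ends was 0.195 for denAsCas12a and −0.08 for dCas12e, so that it did not have one sign in both pairs. Genes near the ends are often repeated between chromosomes, and the part of reads shared between copies was not tested.

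The lower genes with the largest gaps belonged largely to lysine synthesis and zinc uptake. Yeast makes lysine through α-aminoadipate, beginning with homocitrate synthase, and the transcription factor Lys14 drives the pathway when its intermediate α-aminoadipate semialdehyde builds up. Of the 9 genes of the list, 8 were separated as lower and 0 as higher, against 13.1% and 9.03% of all genes. The median log2 fold change of the list was −1.02, against −0.01 for all genes, with −0.58 for the denAsCas12a pair and −1.55 for the dCas12e pair. The list was chosen with this pattern known.

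LYS9, saccharopine dehydrogenase of the penultimate step, had 422 CPM in byMM1827 and 221 CPM in byMM1832, against 1157 CPM in byMM1777 and 1077 CPM in byMM1736. The controls lay close together and both ScRNA libraries well below them, at a log2 fold change of −1.87 ± 0.26 (adjusted p = 0.206). LYS12, homoisocitrate dehydrogenase, had 263 and 157 CPM, against 467 and 477 CPM, and its log2 fold change was −1.22 ± 0.23 (adjusted p = 0.444). LYS4, homoaconitase, had 350 and 250 CPM, against 554 and 533 CPM. LYS1, which forms lysine itself in the last step, had 375 and 186 CPM, against 635 and 556 CPM. In all of them byMM1832 was the lowest library, and the ScRNA strains did not overlap the controls.

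The other members of the lysine list are named outside the rule for named genes. LYS2, which reduces α-aminoadipate, had 207 and 121 CPM in byMM1827 and byMM1832, against 290 and 353 CPM in the controls. LYS20, a homocitrate synthase, had 1014 and 228 CPM, against 1476 and 1903 CPM, and its near copy LYS21 had 681 and 515 CPM, against 842 and 841 CPM. These 2 share much of their sequence, with 53.5% and 54.8% of their 31-base words unique in R64, so reads may have been split between them. LYS14, the regulator, had 36.1 and 28.6 CPM, against 54.2 and 40.6 CPM. LYS5, which activates the Lys2 enzyme, was the member that overlapped, with 35.5 and 29.96 CPM, against 34.5 and 36.8 CPM. DESeq2 called LYS9, LYS12, LYS1, LYS4 and LYS2 at an adjusted p under 0.05, while edgeR called none of the list. The median of the list stayed below 0 when any 1 library was left out, from −1.41 to −0.64.

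Sequences of the form TCCNNNGGA, which Lys14 is known to bind, were searched in the 300 bases before each start codon, and the letters read the same on both strands. They are shown because they stand in front of several of the genes that were lower. Of 6008 promoters in R64, 189 (3.1%) hold one, and 4 of the 9 promoters of the lysine list do. The motif is in capitals, each on the strand of its gene.
LYS9, chrXIV:715597-715621: atcgaaatTCCGTTGGAaaaattcg
LYS9, chrXIV:715535-715559: tgagaattTCCAATGGAattatcag
LYS12, chrIX:187798-187822: cactttttTCCCGTGGAaaaatatt
LYS1, chrIX:420916-420940: ttttttttTCCAGCGGAatttggaa
LYS14, chrIV:512309-512333: gaaaaattTCCTCAGGAatttcaaa
The sites did not follow the size of the gap. LYS9, with 2 such sites, had the largest gap of the list, but LYS14, with a single site, had a gap of only 0.17. LYS4, LYS20, LYS2 and LYS21 were separated as lower with none in this window. Of these, LYS4 had a gap close to that of LYS1, and LYS20 had a log2 fold change of −1.80. Among all separated genes, 4.5% of the promoters of the lower genes and 2.1% of those of the higher genes hold the motif. A match is a run of letters and was not shown to be bound here.

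Zinc enters yeast through the high-affinity transporter Zrt1 and the low-affinity transporter Zrt2, and the regulator Zap1 induces both when zinc is scarce. Of the 14 genes of the zinc list, 6 were separated as lower (42.9%, against 13.1% of all genes) and 1, IZH2, as higher (7.1%, against 9.03%). The median log2 fold change was −0.15, while the mean was −0.39, since a few members carried most of the difference. ZRT1 had 106 CPM in byMM1827 and 53.6 CPM in byMM1832, against 315 CPM in byMM1777 and 799 CPM in byMM1736. Its gap of 1.57 was the largest among the 786 lower genes, but the controls themselves differed more than 2-fold, and the log2 fold change was −2.73 ± 0.54 (adjusted p = 0.477). ZRT2 had 117 and 88.3 CPM, against 173 and 176 CPM, and ZAP1 had 106 and 103 CPM, against 148 and 160 CPM. In both genes the groups were apart, though the ScRNA libraries of ZRT2 differed among themselves, with log2 fold changes of −0.78 ± 0.18 (adjusted p = 0.486) and −0.56 ± 0.16 (adjusted p = 0.496). ZRG8, a gene of the zinc response, had 25.9 and 20.8 CPM, against 32.2 and 28.3 CPM.

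The zinc-responsive element that Zap1 binds, searched in the form in capitals here with any base in the middle, occurs in 6 of 6008 promoters of the same length, and in 2 of the 14 of the zinc list. The site of ZRT1 lies 204 bases before the start codon and is shown with the element in capitals.
ZRT1, chrVII:20766-20792: catatttgACCTTGAAGGTcatggaaa
The other is that of ZRG17, a zinc transporter of the secretory pathway, which had 72.9 and 71.3 CPM in the ScRNA strains, against 81.5 and 78.4 CPM. Both genes of the zinc list with an exact element were separated as lower, but at a log2 fold change of −0.15 that of ZRG17 was small. Among all separated genes, 2 promoters of the lower genes and 0 of the higher genes hold the element. The rest of the 6 promoters with the element do not belong to separated genes. ZRT1 itself lies next to the end of chromosome VII where other genes were higher.

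Other lower genes of large gap were CTP1, MRA1 and YOR192C-C. CTP1, the mitochondrial citrate carrier, had 52.5 and 33.2 CPM, against 83.0 and 80.8 CPM in the controls, at −0.97 ± 0.20 (adjusted p = 0.479). MRA1, a small gene annotated in R64 as YPR010C-A, had 91.9 and 81.4 CPM, against 150 and 146 CPM. For both genes the controls lay within a few percent of each other and above both ScRNA libraries. YOR192C-C had under 5 CPM and only 14.5% unique 31-base words, so its value is uncertain.

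**Figure D4:**
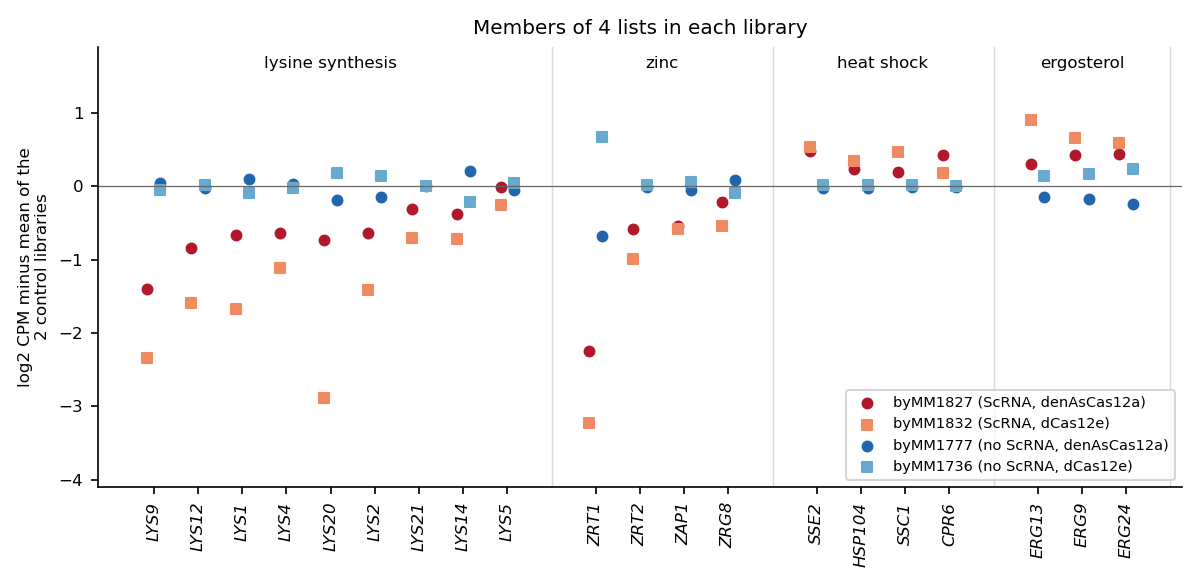
Log2 CPM of single genes in each library minus the mean of the 2 control libraries, for members of the lysine, zinc, heat shock and ergosterol lists, with the ScRNA strains left of the controls at each gene. Red and orange points of the genes drawn from the first 2 lists lie below the zero line, LYS5 in byMM1827 by less than can be seen, and those of the last 2 lists lie above it. The lysine list is drawn in full. From the zinc, heat shock and ergosterol lists only some of the separated genes are drawn, so their side of the line follows from that choice. The 7, 10 and 20 overlapping genes of these lists are not drawn. Nor are IZH2 of the zinc list, which was higher, and AHA1 of the heat shock list, which was lower.

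Several genes of sugar uptake and of growth on other carbon sources were lowest in byMM1832. HXT6 and HXT7, high-affinity glucose transporters with all but the same sequence, had 580 and 145 CPM and 587 and 146 CPM in byMM1827 and byMM1832, against 948 and 822 CPM and 941 and 807 CPM in the controls. Only 4.3% of the 31-base words of each are unique, and they are best read as 1 gene. MTH1, a repressor of the hexose transporters, had 207 and 81.4 CPM, against 344 and 260 CPM, at −1.20 ± 0.25 (adjusted p = 0.486). HXK1, the hexokinase expressed when glucose is low, had 1726 and 802 CPM, against 2499 and 2004 CPM. SNF3 was the fifth of the 17 genes in the hexose list separated as lower (29.4%, against 13.1% of all genes), and 0 were separated as higher (against 9.03%). The list had a median log2 fold change of −0.15, with 0.04 for denAsCas12a and −0.43 for dCas12e.

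Of the 24 glucose-repressed carbon genes, 4 were separated as lower, MLS1, MAL31, MAL32 and FDH1 (10.7% unique words), and PCK1, the key enzyme of gluconeogenesis, as higher. These shares of 16.7% and 4.2% lie near or under the 13.1% and 9.03% of all genes. MAL31, a maltose transporter, had 313 and 119 CPM, against 438 and 380 CPM. MAL32, a maltase, had 525 and 110 CPM, against 670 and 617 CPM, but 10.3% of its words are unique. The list had a median of −0.45, which became −0.005 without byMM1832 and −1.02 without byMM1827. In this list the difference therefore rested on byMM1832. Of the 20 genes of glycolysis and ethanol, PDC5 was separated as lower and the abundant GPM1 and ADH1 as higher. Both shares lay near or under those of all genes (13.1% and 9.03%). PDC5, a minor pyruvate decarboxylase, had 258 and 121 CPM, against 388 and 363 CPM. GPM1 had 7848 and 9063 CPM, against 5330 and 7765 CPM. In GPM1 and ADH1, byMM1827 lay only narrowly above byMM1736. The list had a median of 0.28, which was −0.01 without byMM1777. ADH1, whose promoter drives MCP-VP64 in all strains, had 2776 and 3956 CPM, against 1894 and 2694 CPM, a log2 fold change of 0.55 ± 0.24 (adjusted p = 0.595).

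For phosphate, 15 of 18 genes were lower in both pairs, against 1767 of all 6010, and 5 were separated as lower, PHO84, PHO81, PHO3, VTC3 and KCS1 (27.8%, against 13.1% of all genes). PHO84, the high-affinity phosphate transporter, had 58.9 and 27.8 CPM in byMM1827 and byMM1832, against 65.4 CPM in both controls, and it overlaps another gene, while VTC3, of the polyphosphate polymerase, had 119 and 128 CPM, against 148 and 150 CPM. The first rested on byMM1832 and the second did not. ARG1, argininosuccinate synthetase of arginine synthesis, had 920 and 245 CPM, against 1084 and 1045 CPM. For thiamine, 5 of 15 were separated as lower, THI2, THI4, THI6, THI7 and THI73 (33.3%, against 13.1%), with a median of 0.16 for denAsCas12a and −0.64 for dCas12e. THI7, the thiamine transporter, had 275 and 128 CPM, against 314 and 364 CPM. Without byMM1832 the medians were −0.05 for phosphate and −0.01 for thiamine.

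Of 65 genes of ribosome biogenesis, 36 were lower in both pairs, against 1767 of all 6010, 13 were separated as lower (against 13.1% of all genes) and 0 as higher, with a median log2 fold change of −0.13. RRP5, a factor of both ribosomal subunits, had 33.7 and 30.7 CPM, against 46.8 and 39.8 CPM, and NOG2, a GTPase of the large subunit, had 69.8 and 64.9 CPM, against 85.2 and 92.6 CPM. Of 42 genes of the TCA cycle and respiratory chain, 10 were separated as lower (23.8%, against 13.1% of all genes) and 0 as higher (against 9.03%). QCR7 and QCR10, small subunits of complex III, had 299 and 340 CPM and 162 and 175 CPM, against 557 and 436 CPM and 251 and 212 CPM. Their highest values were in byMM1777, the library that stood apart. Without byMM1777 the list of respiratory genes had a median of −0.21 and without byMM1736 of 0.03, so that its sign depended on the control.

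**Figure D5:**
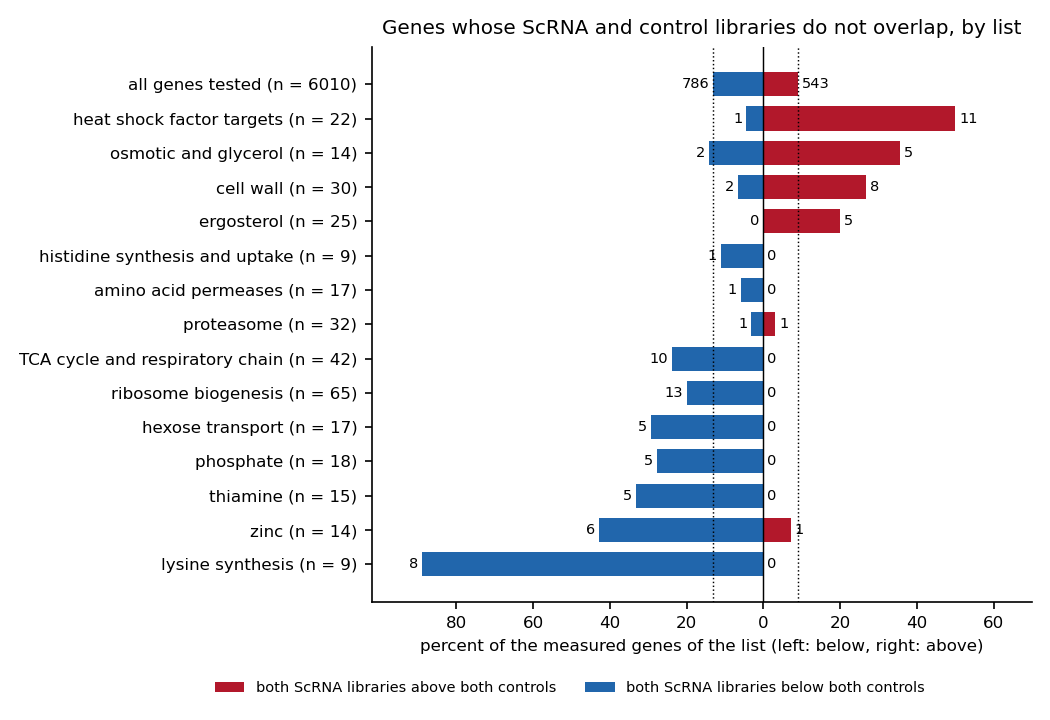
Share of the measured genes of the lists drawn whose ScRNA libraries lay both below (blue, to the left) or both above (red, to the right) both controls, with the number of genes at each bar and the shares over all genes as dotted lines. Of the lists drawn, lysine synthesis reaches farthest to the left and heat shock factor targets farthest to the right.

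Chaperone genes were among the higher ones. Heat shock factor Hsf1 maintains and induces chaperones that fold proteins in the cytosol and mitochondria. Of its 22 listed targets, 11 were separated as higher, against 9.03% of all genes, and AHA1 as lower, with a median log2 fold change of 0.28. SSE2, a nucleotide exchange factor of Hsp70, had 592 and 614 CPM in byMM1827 and byMM1832, against 417 and 429 CPM in byMM1777 and byMM1736. The 4 values formed 2 tight groups, at a log2 fold change of 0.51 ± 0.18 (adjusted p = 0.564). HSP104, the disaggregase, had 1733 and 1860 CPM, against 1446 and 1483 CPM, and SSC1, the mitochondrial Hsp70, had 1307 and 1585 CPM, against 1133 and 1154 CPM. CPR6, a cyclophilin of the Hsp90 complex, had 462 and 392 CPM, against 343 and 346 CPM. All these differences were under 1.5-fold. With ACT1 set equal, 3 of the 22 genes were separated as higher and 1 as lower, and the median was 0.06, which lies above the −0.23 of all genes on that scale. The wider stress list lay near the shares of all genes (9.03% and 13.1%), with 7.0% and 11.6%, that is 3 genes higher (GPD1, HSP104 and HSP42), 5 lower (GSY1, PGM2, TMA10, PNC1 and HXK1) and a median of −0.26 over 43 genes that was 0.13 without byMM1832.

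The glycerol and salt genes included GPD1, which makes glycerol, the osmolyte of yeast. It had 604 and 706 CPM, against 344 and 484 CPM, at 0.68 ± 0.19 (adjusted p = 0.486). DAK1, which detoxifies dihydroxyacetone, had 941 and 952 CPM, against 632 and 732 CPM. Of 14 genes of the osmotic list, 5 were separated as higher (GPD1, DAK1, CWP1, and ENA1 and ENA5 with 10.2% and 7.0% unique words) and 2 as lower (GUT1 and HAL1). These are 35.7% and 14.3%, against 9.03% and 13.1% of all genes, with a median of 0.21 that became −0.01 with ACT1 set equal. Of 30 cell wall genes, 8 were separated as higher (26.7%, against 9.03% of all genes) and 2, CWP2 and MLP1, as lower (6.7%, against 13.1%). PST1, a wall protein of the integrity pathway, had 1829 and 1546 CPM, against 1140 and 1254 CPM, and PRM5, a target of the same pathway, had 150 and 207 CPM, against 92.4 and 122 CPM. The median of the cell wall list was only 0.06, and it was −0.01 with total counts and −0.17 with ACT1 set equal. MLP1 stands in the list by a name shared with a wall kinase, while the row holds a nuclear pore protein.

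Of 25 genes of ergosterol synthesis, the sterol of yeast membranes, 5 were separated as higher (ERG8, ERG9, ERG13, ERG24 and the regulator UPC2) and 0 as lower, against 9.03% and 13.1% of all genes, and 15 were higher in both pairs, against 1728 of all 6010. The median log2 fold change was 0.29. ERG13, HMG-CoA synthase, had 694 and 1056 CPM in the ScRNA strains, against 510 and 622 CPM, at 0.60 ± 0.20 (adjusted p = 0.529). ERG9, squalene synthase, had 464 and 543 CPM, against 306 and 386 CPM, and ERG24, a sterol reductase, had 120 and 133 CPM, against 75.0 and 104 CPM. Both control libraries were below both ScRNA libraries in each, and byMM1777 was the lowest. Without byMM1777 the median of the list was 0.12, without byMM1832 it was 0.06, and with ACT1 set equal it was 0.07, with 4 genes higher and 2 lower.

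A few further genes named by the rule were separated. FUS1, a gene of mating that pheromone induces, had 38.0 and 57.8 CPM in byMM1827 and byMM1832, against 23.0 and 33.4 CPM in byMM1777 and byMM1736, with a log2 fold change of 0.76 ± 0.15 (adjusted p = 0.479). ARN1, a transporter of iron siderophores, had 85.6 and 95.2 CPM, against 58.4 and 65.0 CPM, with a ratio of 1.47 in each pair. Both were higher by similar ratios in the 2 pairs. Their lists went both ways. Of 18 haploid and pheromone genes, 2 were separated as higher (11.1%) and 3 as lower (16.7%), FUS3 and PRM6 among the lower. Of 19 iron genes, 2 were separated as higher and 2, FRE3 and FIT3, as lower (10.5% each way). Of the 20 genes in the list of IMD2 and guanine nucleotides, AAH1, HPT1 and FCY2 were separated as lower and IMD2 as higher. Both shares lay near or under the 13.1% and 9.03% of all genes, and the median log2 fold change was 0.001. HPT1, which recycles guanine, had 125 and 105 CPM, against 188 and 158 CPM. Of 34 coactivators that an activation domain can recruit, 3 were separated as higher and 3 as lower, 8.8% each way and close to or under the 9.03% and 13.1% of all genes. SPT7, a SAGA subunit, had 19.8 and 18.7 CPM, against 26.3 and 29.6 CPM, whereas NUT2, a Mediator subunit, had 6.94 and 8.63 CPM, against 4.23 and 5.38 CPM. DNA damage genes and reference genes had 0 members separated on both scales, of 16 and of 7, against 22.1% of all genes. The reference genes include ACT1, which was separated as higher on TPM alone. The promoters or terminators of TDH3 and CYC1 are also in the circuits. Both genes overlapped on CPM, at log2 fold changes of 0.28 ± 0.39 (adjusted p = 0.829) and −0.20 ± 0.20 (adjusted p = 0.772). The sign turned without byMM1777 for TDH3 and without byMM1736 for CYC1. On the deposited TPM, TDH3 overlapped too, while CYC1 was lower in both ScRNA libraries, with 1277 and 1276 TPM, against 1381 and 1695 TPM. SNR52, whose promoter drives the ScRNAs, had 5 and 6 counts in the ScRNA strains and 5 and 6 counts in the controls, too few for a comparison.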

How the data were processed

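The members, gene lists and tests were chosen with earlier results of these data known. The authors deposited whole-number counts of reads per gene without normalization, and TPM, in which the authors scaled the counts by gene length and library. The submitters' processing notes name FastQC, Trimmomatic, HISAT2, bedtools, StringTie and DESeq2, without roles. The genome build is not given in the sources used here. Each table holds 2 further columns of strains outside the series, which were not used. The deposited comparison tables, with the authors' fold changes, p-values and q-values, were not used, and the 3 emptied lines are not analysed here. Reads of overlapping genes may be mixed, as strand-aware counting is not stated.

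Counts were fitted with edgeR 4.0.16 (TMM factors, a mean of at least 10 counts, quasi-likelihood F test, Cas protein as block, Benjamini-Hochberg adjustment, threshold 0.05). Each strain has 1 library and no repeat culture is stated. The p-values therefore rest on how far the ScRNA to control ratio differs between the Cas pairs, moderated across genes. They do not measure a spread between repeat cultures, and a difference between the pairs, as in HED1, counts as spread. SE is the log2 fold change divided by the root of F. Gaps use a prior of 0.5 counts. DESeq2 1.42.0, limma 3.58.1 on log2(TPM + 1) and log2(TPM + 0.1), other scalings, other filters, no Cas block and each library left out were tried. The 47 lists were written from general knowledge and have no test. Named genes are, as no gene passed the threshold, the 10 with the largest gap in each direction among separated genes of at least 50 mean counts, up to 4 separated members a list by gap, and the targets, markers, circuit genes and their neighbours. Other genes were named after their values were seen. Some genes and lists that the rule takes in are not reported here. Of the gene IDs, 6140 matched RefSeq's R64, from which positions, 31-base words and promoters of 300 bases were read.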

Additional observations from a re-analysis of the deposited data

Results flagged for a closer look

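HED1 moved in opposite directions in the Cas pairs, with a ratio of 2.14 between byMM1827 and byMM1777 and of 0.497 between byMM1832 and byMM1736. Each pair has 1 library a side, and the difference between the pairs was not tested.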

How the results depend on the processing

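edgeR called 0 genes in either direction at an adjusted p under 0.05 with TMM factors, median-ratio size factors, no count filter, a mean of at least 100 counts, no Cas block, and the legacy and robust fits. It called 29 higher and 109 lower with total counts, and 11 higher and 102 lower with ACT1 set equal. DESeq2 called 12 and 34, limma on log2(TPM + 1) 42 and 116, and limma on log2(TPM + 0.1) 39 and 119. Leaving out 1 library gave 0 to 142 higher, the most without byMM1827 and 2 without byMM1832, and 0 to 246 lower, the most without byMM1827 and 1 without byMM1736. The left-out fits assume that a lone library varies like the others. The cause of these differences was not tested.

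Separated genes numbered 179 higher with ACT1 set equal and 954 higher on CPM alone, a setting chosen after seeing the data. With 1 library left out, where fewer libraries have to be on one side, 1055 to 1741 were higher and 1303 to 2278 were lower. Of 95 named genes, 89 kept their sign under the 11 alternatives run for single genes, and 33 of the 47 lists changed the sign of their median under at least 1. The log2 fold change of HED1 was −0.003 with total counts, −0.158 with ACT1 equal, −0.015 with limma on log2(TPM + 0.1), and −0.872 to 0.943 with 1 library left out. With 1 library left out, URA3 ranged over −0.658 to 0.331 (0.199 without byMM1832), TDH3 over −0.024 to 0.579, CYC1 over −0.456 to 0.058, DAD1 over −0.402 to 0.563 (−0.117 without byMM1827) and KAP104 over −0.029 to 0.322. DAD1 was −0.000 without the Cas block and −0.146 with ACT1 equal, and KAP104 was −0.072 with ACT1 equal.

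The labels give no replicate numbers. The fit is paired by the Cas protein, which sets each ScRNA strain against its own control, and without this replicate block edgeR called 0 genes as well, with 163 against 501 at an unadjusted p under 0.05. With 1 library per strain, depth limits only the genes of few counts, such as SNR52.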
